A study of Mus musculus with 24 samples.

Results

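The forkhead factors Foxo1, Foxo3, Foxo4 and Foxp1, the receptors Insr and Igf1r and the adaptor Irs2 were chosen by name, as 7 of the 23420 genes measured, and were read in all 24 libraries of 8 groups of mouse B cells, with 3 libraries per group. All 7 were among the 11885 genes tested, and none was at the floor of the measurement in any library. The groups were B cells of early, peak and late germinal centers (GC, the follicle structures in which activated B cells mutate their antibody genes and are selected), B cells activated in vivo, naive B cells, and cells taken 4 h, 12 h and 24 h after activation in vitro. All came from the spleens of BALB/c mice, were purified with beads, stained with antibodies and sorted on a FACS instrument, and their mRNA was sequenced. The labels name no immunogen, stimulus, day, animal, culture or sex, so the p-values below measure only the spread between these libraries, which may be technical. Values are the deposited log2 values on a CPM-like scale (counts scaled to a common library total), differences are in log2 with their standard error (SE), and adjusted p is from limma over all genes tested, two-sided. A gene is called higher or lower at an adjusted p under 0.05.

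Insulin and the insulin-like growth factors bind the receptor tyrosine kinases encoded by Insr and Igf1r. The activated receptors phosphorylate adaptors of the IRS family, such as Irs2, which recruit PI3-kinase and lead to activation of AKT. AKT phosphorylates the FOXO factors, which are then held in the cytoplasm by 14-3-3 proteins, so that FOXO target genes are transcribed mainly when PI3-kinase activity is low. In B cells the antigen receptor and its co-receptors feed the same PI3-kinase and AKT route. Foxo1 is the FOXO factor best known there: it is required for B-cell development and for the dark zone programme of GC cells. Foxp1, of another forkhead subfamily, acts in early B-cell development and in resting follicular B cells, and is known to be kept low in GC cells. FOXO activity is set largely by phosphorylation, which RNA does not measure.

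The markers of B cells, GC cells and naive cells were read in the groups; no list of activation markers was. The 8 B-cell markers were all above the floor in every group, with a summed level of 24436 to 25028 CPM in naive libraries and 5556 to 5748 CPM at 24 h, the lowest group. The 6 GC markers, Bcl6 and S1pr2 among them, summed to 2067 to 2701 CPM over the 9 GC libraries, 615 to 715 CPM in in vivo activated libraries, 64.4 to 90.2 CPM at 4 h, 41.7 to 41.8 CPM at 12 h and 343 to 376 CPM at 24 h, against 161 to 167 CPM in naive libraries. In in vivo activated cells, only 2 of the 6 were called higher than naive and 4 lower (39.2% and 40.1% of all tested genes), with a median of -1.37 log2. At 24 h the counts were also 2 and 4 (42.2% and 42.5%), with a median of -2.47 log2. The 4 naive-cell markers in the files, Cd38 and Fcer2a among them, summed to 325 to 621 CPM in GC libraries, against 2554 to 2775 CPM in naive ones. Macrophage and monocyte markers, 7 of 8 of which are in the files, were above the floor in all groups and summed to 1953, 660 and 454 CPM in late GC replicates 1, 2 and 3, against 106 to 250 CPM in peak GC and 37.0 to 42.6 CPM in naive libraries. The Y-linked genes Ddx3y, Eif2s3y and Kdm5d lay at the floor in each of the 12 libraries of GC and in vivo activated cells, and above it in the 12 others, so this difference cannot be told apart from the one between those sets of groups. T-cell, NK-cell and dendritic-cell markers summed to at most 48.4, 58.1 and 72.1 CPM in any library. Sequencing depth per library is unknown, because only scaled values were analysed.

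The members lie on 7 separate loci of the mm10 genome in the GENCODE annotation. Foxo1 is at chr3:52268336-52353221 on the plus strand, Foxo3 at chr10:42181841-42276755 on the minus strand, Foxo4 at chrX:101254528-101260873 on the plus strand and Foxp1 at chr6:98925338-99522721 on the minus strand. Irs2 is at chr8:10984681-11008458 and Insr at chr8:3122061-3279617, both on the minus strand, and Igf1r is at chr7:67952827-68233668 on the plus strand. An antisense transcript, Gm20402, covers 674 bases of the Foxo1 exons, and 9530052E02Rik, which never exceeded -2.90 log2, covers 162 bases of the Irs2 exon sequence from the other strand. On the same strand as Foxp1, the protein-coding gene model Gm20696 covers 300 bases of its exons and the miRNA gene Gm49348 covers 135 bases. Whether reads were counted by strand is not given in the sources used here.

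RefSeq promoter windows of 250 bases before to 50 bases after a start site (GRCm38.p6) were at hand for 5 of the 7 members, with 3 windows for Foxp1 and 7 windows in all. They were searched on both strands for 3 motifs: the forkhead core GTAAACA, the insulin response core CAAAACA, which FOXO factors also bind, and the E-box CACGTG. The window of Irs2 is shown because Irs2 changed most of the 7 and its window was the only one with a match. Those of Foxo1, the most abundant FOXO gene, and of Igf1r, which was higher than naive in vitro where Irs2 was lower, are shown beside it. The windows are chr8:11008880-11009179 on the minus strand, chr3:52268087-52268386 on the plus strand and chr7:67952007-67952306 on the plus strand, written 5′ to 3′ along the gene, and capitals mark the motif matches.
Irs2: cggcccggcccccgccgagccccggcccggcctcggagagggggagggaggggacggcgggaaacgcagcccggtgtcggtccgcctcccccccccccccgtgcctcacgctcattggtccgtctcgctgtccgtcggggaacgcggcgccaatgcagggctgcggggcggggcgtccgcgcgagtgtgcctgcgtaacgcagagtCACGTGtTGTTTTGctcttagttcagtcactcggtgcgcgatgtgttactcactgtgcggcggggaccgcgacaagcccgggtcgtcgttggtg
Foxo1: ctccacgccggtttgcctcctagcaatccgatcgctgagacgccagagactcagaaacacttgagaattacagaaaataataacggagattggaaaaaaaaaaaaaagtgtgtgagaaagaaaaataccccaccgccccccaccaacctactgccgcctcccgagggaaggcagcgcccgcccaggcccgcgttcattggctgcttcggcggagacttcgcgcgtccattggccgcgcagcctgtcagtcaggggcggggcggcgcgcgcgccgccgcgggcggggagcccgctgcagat
Igf1r: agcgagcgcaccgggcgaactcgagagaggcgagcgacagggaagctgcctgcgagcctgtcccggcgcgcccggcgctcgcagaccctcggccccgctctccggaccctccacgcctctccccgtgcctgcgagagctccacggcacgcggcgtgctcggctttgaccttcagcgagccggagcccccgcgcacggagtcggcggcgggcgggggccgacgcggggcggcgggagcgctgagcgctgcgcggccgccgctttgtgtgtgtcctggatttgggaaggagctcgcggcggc
The Irs2 window held CACGTG from 44 bases before the start and, after 1 more base, TGTTTTG, the reverse complement of CAAAACA, from 37 bases before it. Of 32851 mouse windows of this length, 6.28% held CAAAACA, 7.15% held CACGTG and 3.65% held GTAAACA in either orientation. The match is a description of these letters and no test was made of it. The RefSeq start lies upstream of the GENCODE start for Irs2 and for Igf1r.

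Against naive cells, most members were lower in every other group. Foxo1, Foxo3, Foxo4, Irs2 and Insr were called lower in all 7 comparisons with naive cells. Igf1r was the exception in sign: it was lower in early GC, peak GC and in vivo activated cells and higher in late GC and at 4 h, 12 h and 24 h. Foxp1 was lower in the GC and in vivo groups and at 24 h, but was not called at 4 h or 12 h. The count of members called lower was 7 of 7 in early GC, in peak GC and in in vivo activated cells, where 40.2%, 39.3% and 40.1% of all tested genes were called lower. No member was called higher there (39.5%, 40.5% and 39.2% of all tested genes). The count called lower was 6 of 7 in late GC (43.1% of all tested genes), 5 of 7 at 4 h (39.1%), 5 of 7 at 12 h (39.2%) and 6 of 7 at 24 h (42.5%). In late GC and at each time in vitro, 1 member, Igf1r, was called higher, where 38.5%, 38.9%, 41.7% and 42.2% of all tested genes were. The 7 comparisons share the 3 naive libraries, so their counts are not independent of one another. In bulk libraries, fewer cells of a type and less RNA of a gene per cell cannot be told apart.

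**Figure D1:**
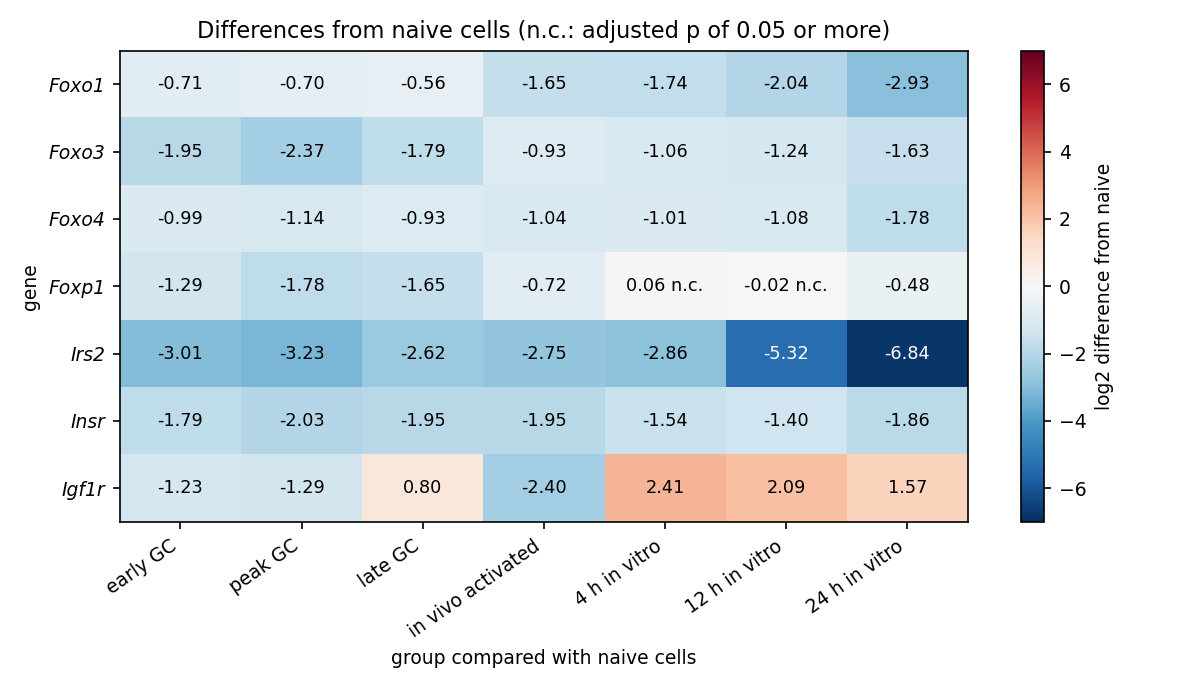
Log2 difference of each member gene (rows) from naive cells in each of the 7 other groups (columns), with the fitted difference printed in each cell and blue for lower, red for higher; "n.c." marks differences that were not called. Irs2 has the darkest cells, at 12 h and 24 h, and Igf1r is the only row with red cells of called differences.

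The insulin receptor gene Insr stood apart in naive cells and varied little among the other groups. It measured 3.70, 3.69 and 3.95 log2 in early GC, 3.65, 3.58 and 3.40 in peak GC, 3.85, 3.59 and 3.44 in late GC and 3.67, 3.58 and 3.61 in in vivo activated libraries, against 5.39, 5.65 and 5.67 in naive libraries. All 12 of these GC and in vivo values lay below the lowest naive value. After activation in vitro it measured 3.92, 4.03 and 4.15 log2 at 4 h, 4.15, 4.18 and 4.17 at 12 h and 3.72, 3.76 and 3.65 at 24 h, again with no library overlapping the naive ones. The difference from naive was -2.03 ± 0.10 in peak GC (adjusted p = 1.04e-14), -1.95 ± 0.10 in in vivo activated cells (adjusted p = 2.50e-14) and -1.54 ± 0.10 at 4 h (adjusted p = 2.00e-12). In order of group means, naive was followed by 12 h, 4 h, early GC, 24 h, late GC, in vivo activated and peak GC. Only naive and 12 h were separated without overlapping libraries among neighbours in that order.

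Igf1r, the IGF-1 receptor gene, was the least abundant member per kb of exon in every group and the one called higher than naive in some groups and lower in others. It measured 0.07, 0.65 and 0.01 log2 in early GC, 0.04, 0.00 and 0.49 in peak GC, 2.37, 2.18 and 2.27 in late GC and -0.61, -1.54 and -0.65 in in vivo activated libraries, against 1.21, 1.80 and 1.39 in naive libraries. Late GC lay above all naive libraries, and the other 3 groups lay below them. In vitro it measured 3.87, 3.90 and 3.85 log2 at 4 h, 3.60, 3.70 and 3.37 at 12 h and 3.15, 3.01 and 2.97 at 24 h, all above the highest naive library. The difference from naive was 2.41 ± 0.22 at 4 h (adjusted p = 5.45e-10) and 1.57 ± 0.22 at 24 h (adjusted p = 4.59e-07). In in vivo activated cells it was -2.40 ± 0.22 (adjusted p = 5.70e-10), and in late GC 0.80 ± 0.22 (adjusted p = 0.00169). The order of means was 4 h, 12 h, 24 h, late GC, naive, early GC, peak GC and in vivo activated, and only early and peak GC overlapped among neighbours. Values near 0 log2 are near 1 CPM, and the in vivo activated libraries are below it, and their spread (0.53 log2, SD, n = 3) was the widest of any member in any group.

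The gap between the 2 receptors within a library narrowed most in vitro and in late GC. Insr exceeded Igf1r by 4.55 ± 0.49 log2 in in vivo activated libraries, against 4.10 ± 0.22 in naive libraries (SD, n = 3 each). The gap was 3.54 ± 0.46 in early GC, 3.36 ± 0.39 in peak GC and 1.35 ± 0.16 in late GC. Peak and late GC libraries lay below all naive ones, and early GC libraries overlapped them. After naive, the gap was 0.16 ± 0.13 log2 at 4 h, 0.61 ± 0.17 at 12 h and 0.67 ± 0.086 at 24 h. These gaps are not divided by gene length. Per kb of exon, Insr had 1.19 ± 0.0990 CPM and Igf1r 0.873 ± 0.0142 CPM at 4 h, against 3.46 ± 0.357 and 0.167 ± 0.0363 CPM in naive cells.

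Irs2, the adaptor downstream of both receptors, had the widest range of the 7. It was highest in naive cells, intermediate in every GC and in vivo group and at 4 h, and fell further at 12 h and 24 h. It measured 7.48, 6.75 and 6.94 log2 in early GC, 6.53, 6.94 and 7.04 in peak GC, 7.65, 7.42 and 7.26 in late GC and 7.36, 7.46 and 7.14 in in vivo activated libraries, against 10.25, 10 and 9.95 in naive libraries. Each of these lay below the lowest naive library. The time course after naive was 7.14, 7.15 and 7.31 log2 at 4 h, 4.49, 4.79 and 4.95 at 12 h and 3.0, 3.39 and 3.30 at 24 h, with no overlap between successive times. Against naive cells, the differences were -3.23 ± 0.17 in peak GC (adjusted p = 3.83e-13), -2.86 ± 0.17 at 4 h (adjusted p = 2.94e-12) and -6.84 ± 0.17 at 24 h (adjusted p = 7.72e-19). From the highest to the lowest group mean, Irs2 spanned 114-fold, and 3.07% of tested genes had a wider range. Late GC, in vivo activated, 4 h, early GC and peak GC were neighbours in the order of means and overlapped. Its promoter window, shown above, held the only FOXO-type match of the 7 windows.

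The summed level of 13 genes that respond to cell handling and stimulation (Fos, Jun, Egr1, Dusp1 and others) was also highest in naive cells. This sum was 3464 to 4528, 2865 to 3952 and 3968 to 4533 CPM in early, peak and late GC. It was 4288 to 5495 CPM in in vivo activated libraries, against 10244 to 12716 CPM in naive libraries. After naive, it was 2238 to 2312 CPM at 4 h, 1301 to 1363 CPM at 12 h and 1115 to 1400 CPM at 24 h. Single genes of the list did not all follow the sum. Egr1 was called higher than naive in early GC (1.26 ± 0.24 log2) and in in vivo activated cells (1.62 ± 0.24). It was the only 1 called higher there, with 10 and 8 of the 13 called lower. All tested genes called lower were 40.2% and 40.1%, and called higher 39.5% and 39.2%. The part of these 13 genes in the Irs2 result was not tested.

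**Figure D2:**
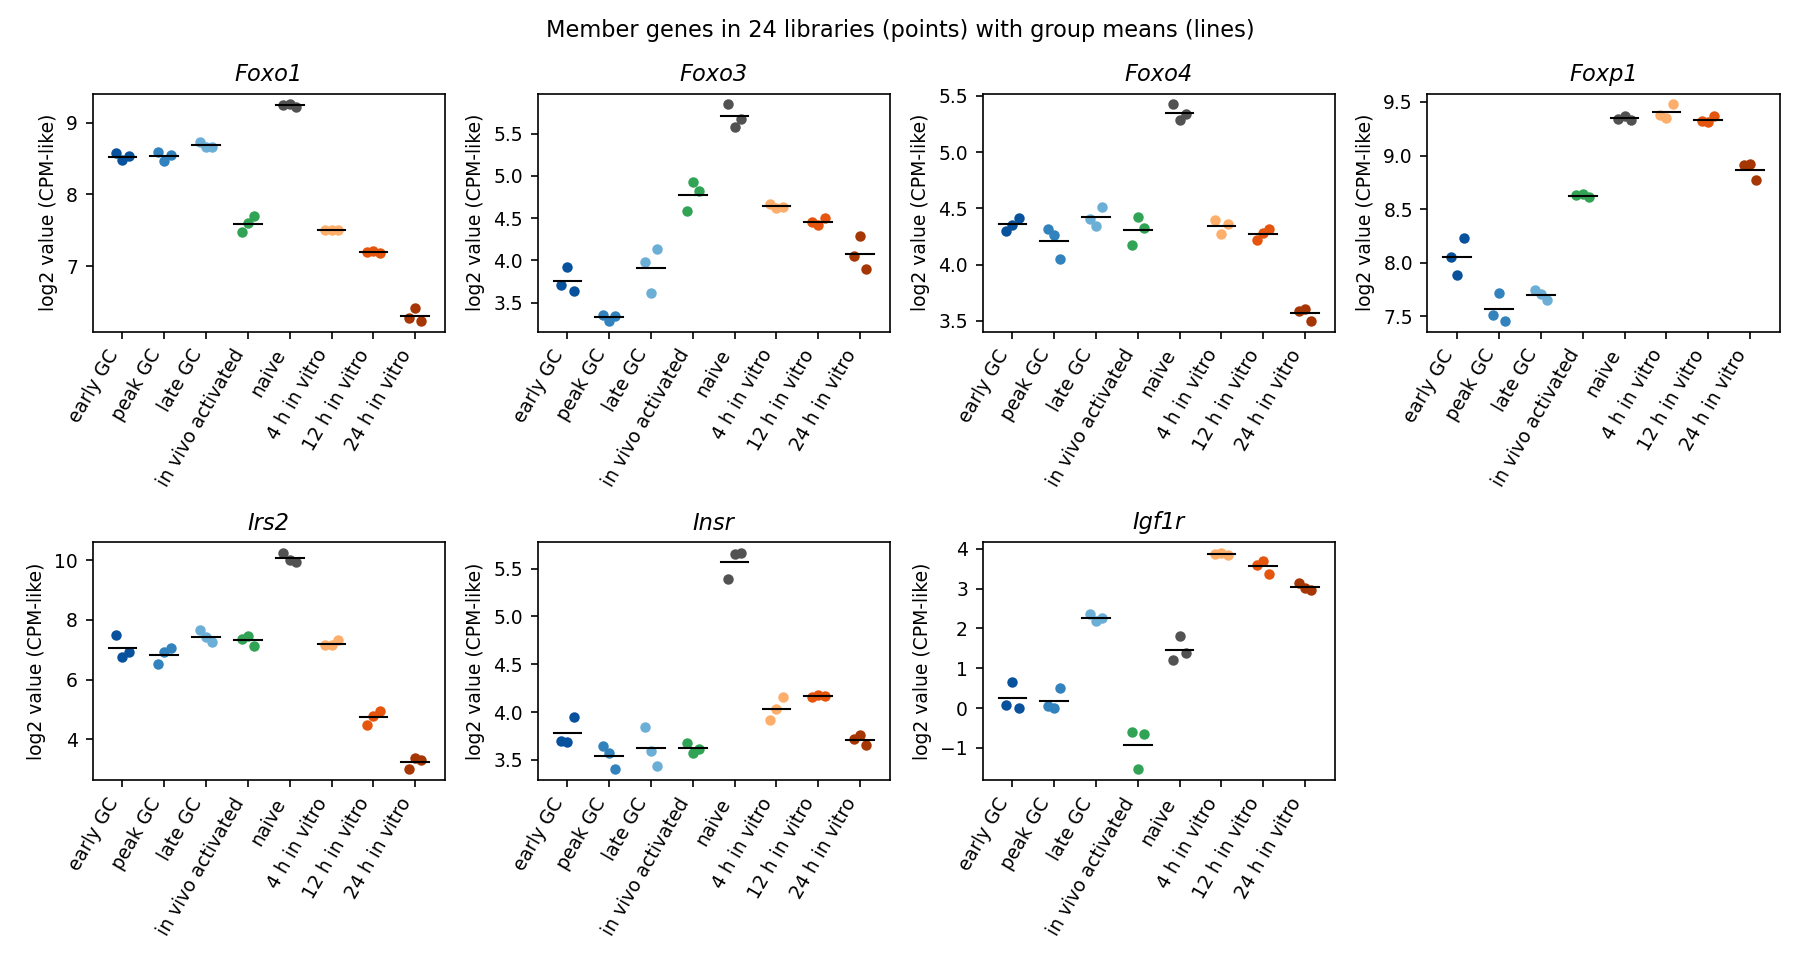
Deposited log2 value of each member gene (1 panel per gene, each with its own vertical scale) in all 24 libraries by group, with points for libraries and a line for the group mean. Naive is the highest group in the panels of Foxo1, Foxo3, Foxo4, Irs2 and Insr, the Foxp1 libraries at naive, 4 h and 12 h overlap, and Igf1r is highest at 4 h.

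Foxo1 was lower in GC cells than in naive cells, and stood closer to the naive level there than in any in vivo or in vitro activated group. It measured 8.57, 8.48 and 8.54 log2 in early GC, 8.60, 8.46 and 8.55 in peak GC, 8.73, 8.67 and 8.65 in late GC and 7.48, 7.61 and 7.69 in in vivo activated libraries, against 9.24, 9.26 and 9.22 in naive libraries. GC libraries thus lay between the in vivo activated and the naive ones, with no overlap on either side. In vitro it measured 7.50, 7.50 and 7.51 log2 at 4 h, 7.20, 7.21 and 7.19 at 12 h and 6.27, 6.42 and 6.24 at 24 h, lower at each step with no overlap. The difference from naive was -0.70 ± 0.053 in peak GC (adjusted p = 1.93e-11), -1.65 ± 0.053 in in vivo activated cells (adjusted p = 3.04e-18) and -2.93 ± 0.053 at 24 h (adjusted p = 6.84e-23). In the order of means (naive, late, peak and early GC, in vivo activated, 4 h, 12 h, 24 h), only peak with early GC and in vivo activated with 4 h overlapped.

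Foxo3, a FOXO factor linked to apoptosis and quiescence genes, had the opposite order between GC and in vivo activated cells. It measured 3.71, 3.93 and 3.64 log2 in early GC, 3.36, 3.29 and 3.35 in peak GC, 3.98, 3.62 and 4.13 in late GC and 4.59, 4.92 and 4.83 in in vivo activated libraries, against 5.85, 5.58 and 5.68 in naive libraries. Peak GC was the lowest group, with no library overlapping any other group. The time course was 4.67, 4.62 and 4.64 log2 at 4 h, 4.46, 4.42 and 4.51 at 12 h and 4.05, 4.29 and 3.89 at 24 h. The difference from naive was -2.37 ± 0.12 in peak GC (adjusted p = 6.00e-15) and -0.93 ± 0.12 in in vivo activated cells (adjusted p = 1.31e-07). Naive, in vivo activated, 4 h, 12 h, 24 h, late GC, early GC and peak GC was the order of means. In vivo activated overlapped 4 h, and 24 h, late GC and early GC overlapped in turn.

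Foxo4, the X-linked FOXO gene, was lower by about the same amount in all groups but 24 h, where it was lower still. It measured 4.30, 4.35 and 4.42 log2 in early GC, 4.31, 4.26 and 4.05 in peak GC, 4.4, 4.34 and 4.51 in late GC and 4.17, 4.42 and 4.33 in in vivo activated libraries, against 5.42, 5.29 and 5.34 in naive libraries. The values after naive were 4.4, 4.27 and 4.36 log2 at 4 h, 4.22, 4.28 and 4.32 at 12 h and 3.59, 3.61 and 3.50 at 24 h. Only naive, at the top, and 24 h, at the bottom, stood clear of their neighbours. The difference from naive was -1.14 ± 0.078 in peak GC (adjusted p = 3.66e-12), -1.01 ± 0.078 at 4 h (adjusted p = 3.76e-11) and -1.78 ± 0.078 at 24 h (adjusted p = 4.67e-16). The X-linked transcript Xist was at 7.91 to 8.55 log2 in GC and in vivo activated libraries, against 6.29 to 7.49 log2 in naive and in vitro libraries. The part of this split in the Foxo4 differences was not tested.

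Divided by exon length, Foxo1 made up most of the FOXO RNA in every group. The 3 FOXO genes together had 50.3 ± 1.19, 49.5 ± 2.14 and 55.6 ± 1.41 CPM per kb in early, peak and late GC and 31.7 ± 2.43 in in vivo activated cells, against 88.5 ± 1.29 CPM per kb in naive cells (SD, n = 3). After naive, the sum was 30.0 ± 0.342 CPM per kb at 4 h, 25.4 ± 0.163 at 12 h and 14.8 ± 1.03 at 24 h. The share of Foxo1 in that sum was 86.6% ± 0.983 in peak GC and 70.5% ± 1.41 in in vivo activated cells, against 79.0% ± 1.13 in naive cells. It was 69.6% ± 0.726 at 4 h, 66.7% ± 0.741 at 12 h and 61.9% ± 0.658 at 24 h. The Foxo3 share was 2.68% ± 0.0555 in peak GC and 11.5% ± 0.680 in in vivo activated cells, against 7.80% ± 0.634 in naive cells, and 15.1% ± 1.04 at 24 h. GC libraries thus held a larger Foxo1 share, and activated libraries of both kinds a smaller one, than naive libraries, without overlap of the libraries. Within a library, Foxo1 exceeded Foxo3 by 5.21 ± 0.031 log2 in peak GC and 2.81 ± 0.11 in in vivo activated cells, against 3.54 ± 0.14 in naive cells.

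**Figure D3:**
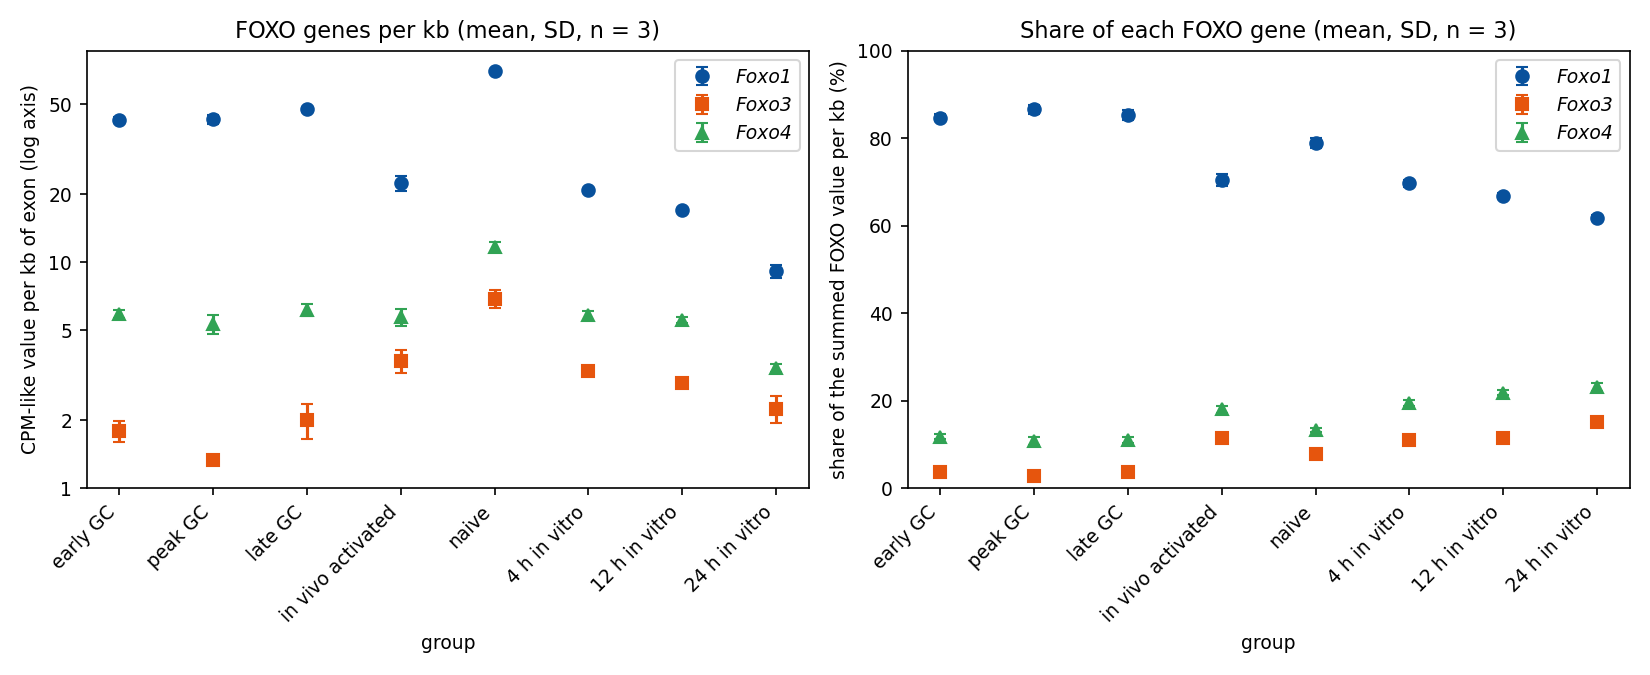
Left, level of each FOXO gene in CPM-like units per kb of exon (logarithmic axis), and right, its share of the summed level of the 3 genes in percent, by group; points are means and bars SD of 3 libraries. Foxo1 is the top series in every group, with 86.6% of the sum in peak GC, 79.0% in naive cells and 61.9% at 24 h.

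Foxp1 was lower than naive in GC cells, in in vivo activated cells and at 24 h, and was not called at 4 h or 12 h in vitro. It measured 8.05, 7.88 and 8.23 log2 in early GC, 7.52, 7.72 and 7.46 in peak GC, 7.74, 7.70 and 7.65 in late GC and 8.63, 8.64 and 8.61 in in vivo activated libraries, against 9.34, 9.37 and 9.34 in naive libraries. In vivo activated libraries lay between the GC and the naive ones. In vitro it measured 9.38, 9.35 and 9.48 log2 at 4 h, 9.32, 9.31 and 9.37 at 12 h and 8.92, 8.92 and 8.77 at 24 h. The difference from naive was -1.78 ± 0.069 in peak GC (adjusted p = 7.07e-17), -0.72 ± 0.069 in in vivo activated cells (adjusted p = 1.55e-09) and -0.48 ± 0.069 at 24 h (adjusted p = 9.23e-07). At 4 h it was 0.06, with a 95% interval of -0.09 to 0.20 (adjusted p = 0.470), and at 12 h -0.02, with an interval of -0.16 to 0.13 (adjusted p = 0.841). Libraries at 4 h, naive and 12 h overlapped at the top of the order, and late and peak GC at the bottom.

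The balance of Foxo1 and Foxp1 lay on opposite sides of naive cells in GC and in activated cells. Foxo1 minus Foxp1 within a library was 0.97 ± 0.20 log2 in peak GC and -1.03 ± 0.12 in in vivo activated cells, against -0.11 ± 0.0075 in naive cells. The difference was -1.90 ± 0.064 log2 at 4 h, -2.13 ± 0.038 at 12 h and -2.56 ± 0.072 at 24 h. These are differences of values not divided by length, and the annotation lists 31 Foxp1 transcripts. The rank of Foxp1 per kb depends on the length used against Irs2 in GC cells and against Foxo1 in naive cells. In the GC groups Foxo1 ranked above Foxp1 per kb with either length.

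Peak GC cells were compared with in vivo activated cells to set GC cells against other cells activated in the animal. Foxo1 and Igf1r were higher in peak GC, Foxo3, Foxp1 and Irs2 were lower, and Foxo4 and Insr were not called. This makes 2 members called higher and 3 called lower, where 34.1% and 35% of all tested genes were called. Foxo1 differed by 0.94 ± 0.053 log2 (adjusted p = 1.94e-13), with means of 8.54 ± 0.069 in peak GC and 7.59 ± 0.11 in in vivo activated cells (SD, n = 3 each). For Foxo3 the difference was -1.45 ± 0.12 (adjusted p = 1.27e-10) and for Foxp1 -1.06 ± 0.069 (adjusted p = 3.14e-12), in each case without overlap of libraries. Igf1r differed by 1.11 ± 0.22 (adjusted p = 9.04e-05) at levels near or below 1 CPM. The Foxo4 difference was -0.10 (95% interval -0.26 to 0.06, adjusted p = 0.258) and that of Insr -0.08 (-0.29 to 0.13, adjusted p = 0.495). The Irs2 call, -0.48 ± 0.17 with an adjusted p of 0.0170, was lost without peak GC replicate 1 (-0.33, adjusted p = 0.110) or without in vivo activated replicate 2 (-0.41, adjusted p = 0.0666).

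In vivo activated cells had more Irs2 and FOXO RNA than cells activated for 24 h in vitro, and much less Igf1r. Irs2 was higher by 4.09 ± 0.17 log2 (adjusted p = 3.29e-14), with 7.36, 7.46 and 7.14 in in vivo activated libraries, against 3.0, 3.39 and 3.30 at 24 h. Foxo1, Foxo3 and Foxo4 were higher by 1.28, 0.70 and 0.74 (adjusted p = 1.59e-15, 1.10e-05 and 1.52e-08). Igf1r was lower, at -3.97 ± 0.22 (adjusted p = 2.00e-13), and so was Foxp1, at -0.24 ± 0.069 (adjusted p = 0.00335). The Insr difference was -0.09 (95% interval -0.30 to 0.12, adjusted p = 0.448). Together 4 members were called higher and 2 lower, where 33.6% and 36.3% of all tested genes were called. The 2 groups also differ in Y-linked expression and in culture, which cannot be told apart here. Of the 13 handling and stimulation genes, 12 were called higher in in vivo activated cells and none lower (33.6% and 36.3% of all tested genes). The part of these genes in the member differences was not tested.

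Among the GC stages the largest differences were those of Igf1r in late GC, and the others were at most 0.61 log2. The median absolute difference of the members was 0.22 log2 in peak against early GC, where that of all tested genes was 0.12. It was 0.21 in late against peak GC (all tested genes 0.18) and 0.155 in late against early GC (0.19). Igf1r was higher in late than in peak GC by 2.10 ± 0.22 log2 (adjusted p = 6.19e-07) and than in early GC by 2.03 ± 0.22 (adjusted p = 2.73e-07). The 3 late libraries, at 2.37, 2.18 and 2.27 log2, stood above all 6 early and peak libraries. Macrophage, neutrophil (5 of 6 markers in the files) and erythroid markers (4 of 5, Hba-a1 at the floor) also had their highest sums in late GC libraries. Only the macrophage sums stood above all early and peak GC libraries. The neutrophil sum was 71.2 CPM in late replicate 3 and 117 CPM in early replicate 1. The erythroid sum was 330 CPM in late replicate 2 and 370 CPM in early replicate 2. Late GC replicate 1 held the most macrophage (1953 CPM) and neutrophil (1001 CPM) signal, against 454 and 71.2 CPM in replicate 3. Without that library, the Igf1r difference from peak GC was 2.05 (adjusted p = 6.30e-06), and Igf1r in late replicates 2 and 3 alone was 2.18 and 2.27 log2. The part of the remaining marker signal in the Igf1r result was not tested.

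In peak against early GC, 2 members were called lower, where 7.42% of all tested genes were, and none higher (5.77%). Foxp1 was lower in peak GC, with a difference of -0.49 ± 0.069 log2 (adjusted p = 2.75e-05), without overlap of libraries, and remained lower in late than in early GC (-0.36 ± 0.069, adjusted p = 3.77e-04). Foxo3 was lower in peak GC, at -0.43 ± 0.12 (adjusted p = 0.0152), a call lost without early GC replicate 2 (-0.34, adjusted p = 0.0986) or peak GC replicate 2 (adjusted p = 0.0513). In late against peak GC, 5 members were called higher, where 12% of all tested genes were, and none lower (20.6%). Foxo3 was one of them, at 0.58 ± 0.12 (adjusted p = 6.48e-04). Irs2 was higher by 0.61 ± 0.17 (adjusted p = 0.0106), highest in late replicate 1, the library with the most macrophage signal. Its call was lost without peak GC replicate 1 (adjusted p = 0.0686) or late GC replicate 1 (adjusted p = 0.0542). Of the 13 handling and stimulation genes, 7 were called higher in late than in peak GC and none lower (12% and 20.6% of all tested genes). Their sum was 3968 to 4533 CPM in late GC, against 2865 to 3952 CPM in peak GC. The part of these genes in the Irs2 difference was not tested. Foxo1 (0.15 ± 0.053, adjusted p = 0.0379) and Foxo4 (0.21 ± 0.078, adjusted p = 0.0420) had small differences that lost their call with the replicate number as a block (adjusted p = 0.0616 and 0.0686, leaving 3 members called) and without any of several libraries. For Foxo1 these were peak GC replicate 2 and each late GC replicate (adjusted p = 0.0503 to 0.166), and for Foxo4 peak GC replicates 2 and 3 and late GC replicates 1 and 3 (adjusted p = 0.0511 to 0.203).

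Between late and early GC, 2 members were called higher and 1 lower, where 13% and 22.1% of all tested genes were. Beside Igf1r and Foxp1, the third was Foxo1, higher in late GC by 0.16 ± 0.053 (adjusted p = 0.0258), which was lost without early GC replicate 2 (adjusted p = 0.106) or late GC replicate 1 (adjusted p = 0.0946). Insr was called in none of the 3 stage comparisons, with differences of -0.24 (peak minus early, 95% interval -0.45 to -0.03), 0.08 (late minus peak, -0.13 to 0.29) and -0.16 (late minus early, -0.37 to 0.06).

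**Figure D4:**
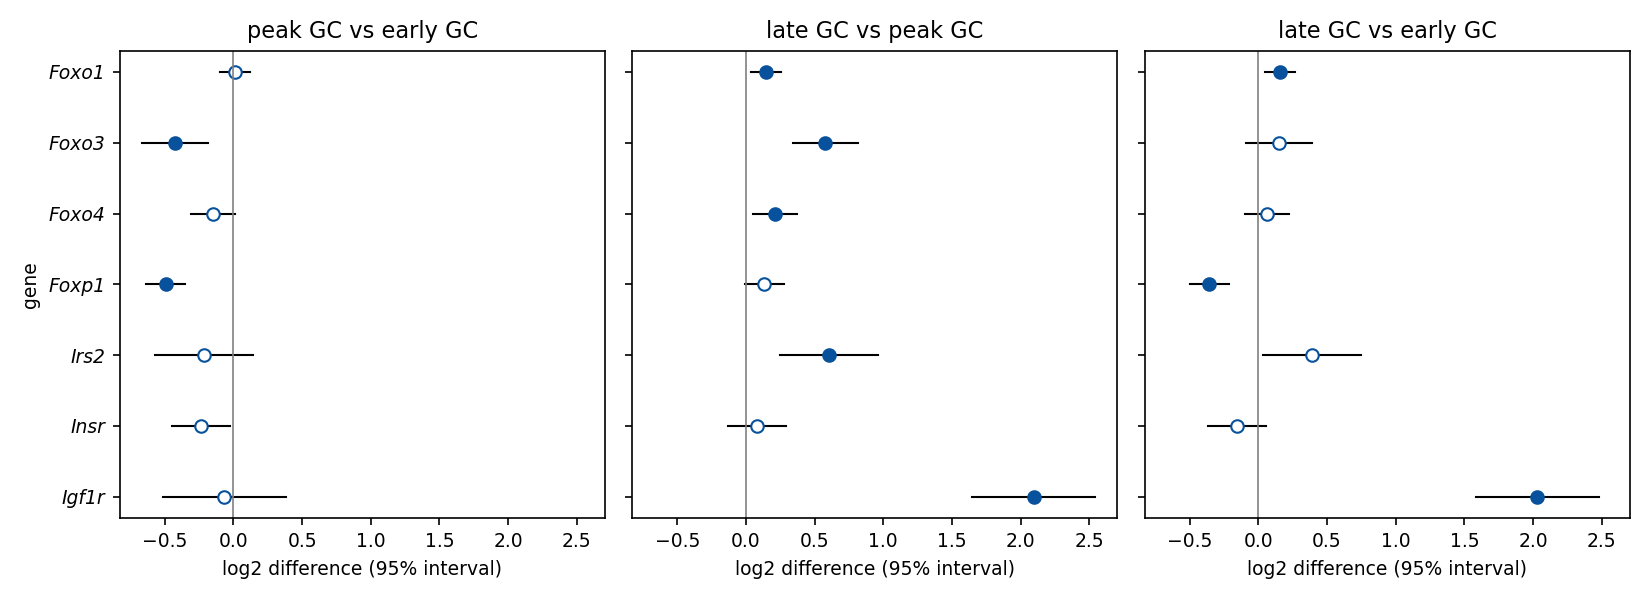
Log2 difference of each member gene between GC stages, as peak minus early, late minus peak and late minus early, with 95% intervals from limma; filled points passed an adjusted p of 0.05. Igf1r lies near 2 log2 in both panels with late GC, and the next largest difference is Irs2 in late minus peak GC at 0.61.

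After 4 h in vitro, Irs2 and Foxo1 fell at both later steps, and all 7 members were called lower at 24 h than at 12 h, Igf1r with the weakest call. At 12 h against 4 h, 2 members were called lower (27.2% of all tested genes) and none higher (34.6%): Irs2, with a difference of -2.46 ± 0.17 log2 (adjusted p = 1.64e-10), and Foxo1, with -0.30 ± 0.053 (adjusted p = 3.04e-05). The other 5 ranged from -0.32 (Igf1r) to 0.14 (Insr). At 24 h against 12 h, the count called lower was 7 of 7 (6 with the replicate number as a block, where Igf1r had an adjusted p of 0.0649), and 34.8% of all tested genes were called lower and 22.5% higher. The largest differences were those of Irs2 (-1.51 ± 0.17, adjusted p = 2.80e-07), Foxo1 (-0.89 ± 0.053, adjusted p = 1.30e-12) and Foxo4 (-0.71 ± 0.078, adjusted p = 7.86e-08). Foxp1 (-0.46) and Insr (-0.46) were lower to a like extent, with adjusted p of 5.77e-06 and 5.37e-04. Foxo3 (-0.38 ± 0.12, adjusted p = 0.00720) lost its call without 24 h replicate 3 (adjusted p = 0.0541). Igf1r (-0.52 ± 0.22) had an adjusted p of 0.0464, and its call was lost without any one of 12 h replicates 1 and 2 and 24 h replicates 1, 2 and 3 (adjusted p = 0.0602 to 0.140). The summed level of the 8 B-cell markers also fell in vitro, from 12708 to 12805 CPM at 4 h to 9296 to 10845 CPM at 12 h and 5556 to 5748 CPM at 24 h. Single markers did not all follow the sum. At 12 h against 4 h, 6 were called higher and 2 lower (34.6% and 27.2% of all tested genes). At 24 h against 12 h, 2 were called higher and 4 lower (22.5% and 34.8%).

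A list of 30 genes known as FOXO targets in B cells or other mouse tissues was counted beside the factors, of which 28 were tested (Pdk4 and Rag2 were too low). Called lower against naive cells were 16 of 28 in peak GC, 24 in in vivo activated cells, 20 at 4 h, 24 at 12 h and 24 at 24 h, where 39.3%, 40.1%, 39.1%, 39.2% and 42.5% of all tested genes were. Called higher were 6, 1, 4, 2 and 0 in the same groups, where 40.5%, 39.2%, 38.9%, 41.7% and 42.2% of all tested genes were. The median difference of the list was -0.52 log2 in peak GC, -1.12 in in vivo activated cells, -1.18 at 4 h, -1.77 at 12 h and -2.61 at 24 h, while that of all tested genes was between -0.02 and 0.03 in each. Early and late GC had 16 and 14 called lower and 5 and 8 called higher, with list medians of -0.66 and -0.44. Some of the 28 are themselves markers of the groups, as Bcl6 is of GC cells.

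In peak GC, Cited2, a transcriptional co-regulator, was higher than in naive cells by 1.99 ± 0.092 log2. The chemokine receptor gene Ccr7 differed by -5.64 ± 0.25, and Btg1, an antiproliferative gene, by -1.66 ± 0.074. In in vivo activated cells, Txnip, a regulator of glucose uptake, differed by -1.66 ± 0.081 and Bcl6 by -4.01 ± 0.17, while Cited2 was the only listed target called higher (1.11 ± 0.092). At 4 h, catalase (Cat, -1.89 ± 0.056) and Sesn3 (-2.18 ± 0.096), which act in oxidant and nutrient stress, were lower, and Il7r (3.14 ± 0.26) and Sod2 (0.87 ± 0.062) were higher. At 24 h, Txnip (-2.57 ± 0.081) and Btg1 (-2.36 ± 0.074) had the smallest p of the list. Adjusted p was 1.30e-10 or less for each of these differences.

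Set directly against in vivo activated cells, peak GC had 14 of 28 targets called higher and 7 called lower, with a list median of 0.34 log2, against -0.01 for all tested genes, of which 34.1% and 35% were called higher and lower. Cat (1.47 ± 0.056) was higher, and Ccr7 (-4.69 ± 0.25) was lower. In in vivo activated cells against 24 h in vitro, 21 of 28 were called higher and 2 lower, with a median of 1.17 (all tested genes 33.6% and 36.3%). In late against peak GC, 8 were called higher and 2 lower, Cdkn1a (2.06 ± 0.26) among the higher ones (all tested genes 12% and 20.6%). Over the alternatives, the count of higher targets ranged from 5 (only the 2 groups fitted) to 14 (without peak GC replicate 3). That of lower targets ranged from 0 to 2. Late GC also held the most macrophage marker signal, and its part in these counts was not tested. At 12 h against 4 h, 16 targets were called lower and 1 higher (all tested genes 27.2% and 34.6%). At 24 h against 12 h, 22 were called lower and 1 higher (34.8% and 22.5%).

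**Figure D5:**
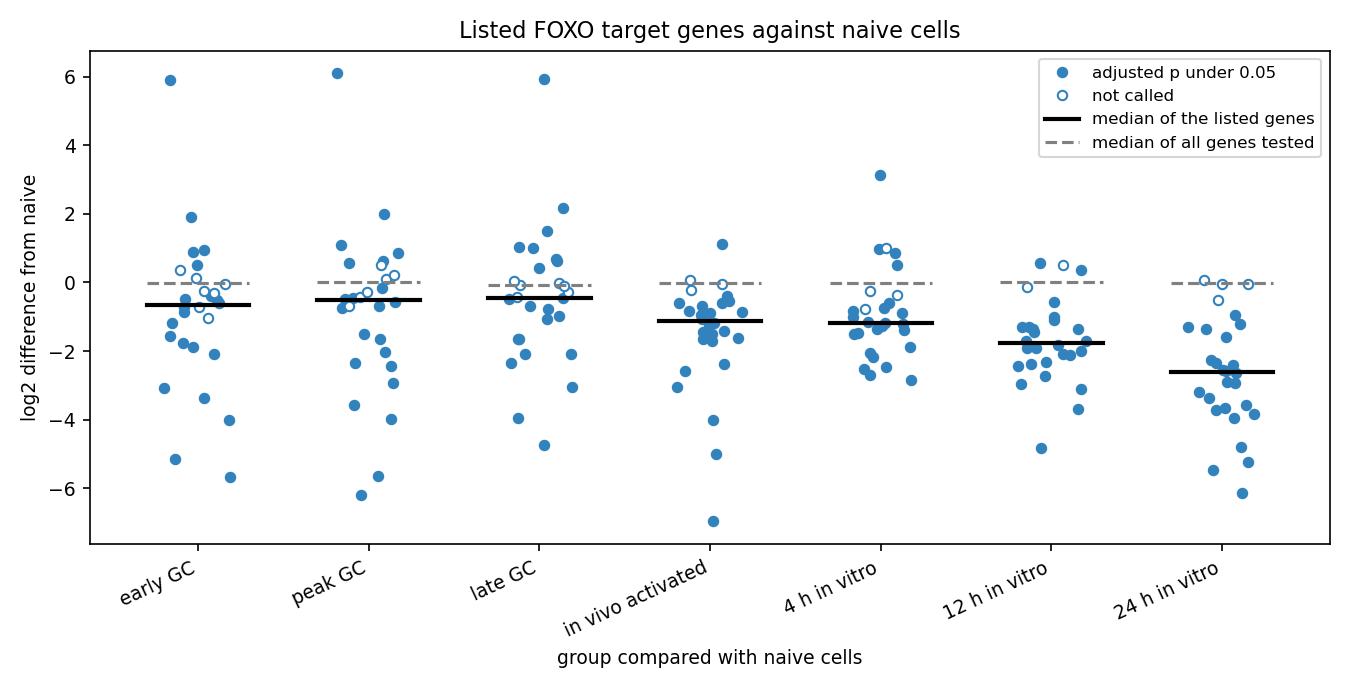
Log2 difference from naive cells of the 28 tested genes of the FOXO target list (points) in each of the 7 other groups, filled where the adjusted p was under 0.05, with the median of the list (black) and of all tested genes (dashed). The list median is lowest at 24 h in vitro (-2.61) and nearest to that of all genes in the GC groups.

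Of 20 other genes of insulin and IGF signalling, 14 were tested. The ligand genes Igf1 and Igf2 and Grb14, Insrr, Irs4 and Ptprf were too low. Against naive cells, 6 were called higher and 5 lower in peak GC, 8 and 5 in in vivo activated cells, 5 and 4 at 4 h and 4 and 9 at 24 h. The shares of all tested genes called higher and lower were 40.5% and 39.3% in peak GC, 39.2% and 40.1% in in vivo activated cells, 38.9% and 39.1% at 4 h and 42.2% and 42.5% at 24 h, so the counts in peak GC lay near the background. At 4 h the count called lower was 2 without naive replicate 3 or 4 h replicate 2. The list median was 0.31 log2 in peak GC, 0.13 in in vivo activated cells, 0.14 at 4 h and -0.68 at 24 h. Sh2b2, an adaptor that binds activated receptor kinases, was higher in peak GC by 3.20 ± 0.094 (adjusted p = 6.16e-19) and at 24 h by 1.65 ± 0.094. Ide, the insulin-degrading protease, was lower in peak GC (-1.90 ± 0.099, adjusted p = 3.16e-14) and higher in in vivo activated cells (1.12 ± 0.099) and at 4 h (2.45 ± 0.099, adjusted p = 3.46e-16). The difference between peak GC and in vivo activated cells was itself -3.03 ± 0.099 (adjusted p = 1.61e-17). Igf2r, the receptor that clears IGF-2, was higher at 4 h by 1.82 ± 0.077. Irs1, the other IRS adaptor gene tested, averaged -5.08 log2 in peak GC, at the floor, and -0.24 log2 in naive cells, where Irs2 averaged 10.06.

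All 23 listed regulators of FOXO factors were tested. In peak GC 11 were called higher and 9 lower against naive cells, in in vivo activated cells 8 and 11, and at 24 h 8 and 12. With 40.5% and 39.3%, 39.2% and 40.1% and 42.2% and 42.5% of all tested genes called higher and lower there, these counts of 23 are no result particular to the list. Among the AKT kinases that phosphorylate FOXO factors, Akt1 was higher in peak GC (1.45 ± 0.045, adjusted p = 8.96e-19). Of the 14-3-3 genes, Ywhab was higher in peak GC (1.15 ± 0.046), and Ywhag (1.93 ± 0.085) and Ywhae (1.21 ± 0.067) were higher at 4 h. The AKT-related kinase gene Sgk3 was lower at 4 h (-1.54 ± 0.094), and Sgk1 at 24 h (-1.95 ± 0.080). Crebbp, a FOXO acetyltransferase, was lower in peak GC (-1.41 ± 0.096) and at 24 h (-2.50 ± 0.096).

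Of 15 other forkhead genes, 9 were tested, and Foxh1, Foxn4, Foxo6, Foxp2, Foxp3 and Foxs1 were too low. In peak GC 2 were called higher and 6 lower than in naive cells, and at 24 h 3 and 6, where 40.5% and 39.3% of all tested genes were called higher and lower in peak GC and 42.2% and 42.5% at 24 h. Foxm1, a factor of the G2 and M phases, was higher in peak GC (3.13 ± 0.084, adjusted p = 6.62e-20) and at 24 h (1.91 ± 0.084), and Foxk2 was also higher at both (0.72 ± 0.067 and 1.19 ± 0.067). Foxj2 was lower in peak GC (-1.18 ± 0.076) and at 24 h (-2.16 ± 0.076), and Foxk1 likewise (-1.47 ± 0.083 and -1.03 ± 0.083). Foxp4, of the same subfamily as Foxp1, was higher at 12 h than in naive cells (1.07 ± 0.085), where Foxp1 was not called.

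As a description of the patterns, each member's 8 group means were correlated with those of 4547 other genes (4548 for Foxo4) that varied across groups and reached 10 CPM in a group. With 8 means that share the same libraries, no test was made. Highest in Pearson's r were Mtmr3 (0.992), Thbd (0.990) and Dennd1b (0.990) for Foxo1, Gucd1 (0.989), Serpinb1a (0.987) and Notch1 (0.979) for Foxo3 and Gltscr1l (0.988), S1pr1 (0.986) and Dtx1 (0.983) for Foxo4. For Foxp1 they were Suox (0.997), Zfp358 (0.992) and Arhgef3 (0.985), for Irs2 Mafk (0.994), Lysmd3 (0.988) and Ifngr1 (0.987), for Insr Spns2 (0.974), Zrsr1 (0.968) and Treml2 (0.967) and for Igf1r Zfp828 (0.957), Nfix (0.933) and Xcl1 (0.923). S1pr1, second for Foxo4, is on the FOXO target list. Among the members, the closest pairs over the 8 means were Foxo4 with Irs2 (r = 0.91) and Foxo1 with Irs2 (0.88), and Foxo1 with Foxp1 had r = -0.39. The range over groups was 2.93 log2 for Foxo1, 2.37 for Foxo3, 1.78 for Foxo4, 1.84 for Foxp1, 2.03 for Insr and 4.81 for Igf1r, where the median tested gene ranged over 1.66 log2.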

How the data were processed

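Per the labels' protocols, 24 mRNA libraries (8 groups of 3) were made with a stranded TruSeq kit and read as pairs of 75 bases on a NextSeq 500. The submitters' processing notes name STAR 2.6.0c and the mm10 genome, featureCounts from Subread 1.6.2, limma, and, for read quality and trimming, FastQC 0.11.5 and cutadapt 1.8.3. Their options are not given in the sources used here. The deposited log2 values resemble log2 CPM: unlogged, they sum to 990677 to 1008193 per library. Means over replicate numbers were equal for each gene within 0.0009 log2, so a difference between numbers had been removed before deposit, which can make the spread between replicates look smaller. The most frequent value was -6.178 log2, and values under -5 log2 are called the floor. A fall in CPM is relative to the other RNA of a library.

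Genes with at least 0 log2 (1 CPM) in at least 3 libraries were tested (11885) with limma 3.58.1 in R 4.3.3, using a trend, robust moderation, 1 mean per group and 16 residual degrees of freedom, and Benjamini-Hochberg adjustment over all genes tested per comparison. Tables were made with pandas 2.3.3 and numpy 2.4.6 in Python 3.11.15, and figures with matplotlib 3.10.9. The code of the fit was run on simulated data with independent noise, which does not test the p-values of the deposited values. The alternatives were no filter, a filter of 10 CPM, a pseudocount of 1 CPM, limma without trend and robust options, and median centring of each library. Others were the replicate number as a block, each comparison's 2 groups alone, and each library left out. Library medians spanned only 4.706 to 4.725 log2, so median centring could change little. Per kb values are unlogged values divided by the length of all annotated exons (GENCODE, mm10).

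The members and gene lists were chosen with earlier results of these data known. In each list, up to 2 genes per direction with the smallest p in a comparison are named, and for likeness the 3 genes with the highest r among those with an SD of group means of at least 0.5 log2, without unnamed gene models. Folds of genes at the floor are not given. Some genes that this rule would name are not reported here.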

Additional observations from a re-analysis of the deposited data

How the results depend on the processing

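All 637 alternative values of the members' differences from naive cells kept their direction and their side of the threshold, and so did 1226 of 1274 over all 14 comparisons; 36 lost a call, 6 gained one and 6 changed sign. The 6 that changed sign were uncalled differences with one library left out. Foxo1 in peak minus early GC ranged from -0.0208 (without peak GC replicate 1; -0.0163 without early GC replicate 2) to 0.0467, Igf1r there from -0.22 to 0.14 (without early GC replicate 2; 0.002 and 0.025 without peak GC replicates 1 and 2), and Insr in late minus peak GC from -0.0288 (without late GC replicate 1) to 0.18. With only the 2 groups compared in the fit, 610 genes were called in peak against early GC (1568 with all groups), 1207 in late against peak GC (3877) and 2381 in late against early GC (4169); with a filter of 10 CPM, late against peak GC had 2523. Members called in peak against early GC were 1 with no filter and 1 with 2 groups (2 as reported), in late against peak GC 3 with no filter, 3 with 2 groups and 3 with the replicate block (5 as reported), and at 12 h against 4 h 4 with 2 groups (2 as reported). Leaving out one library gave 1034 to 1549 genes and 1 to 2 members called in peak against early GC, and 3020 to 4091 genes and 2 to 4 members in late against peak GC. The cause of these changes was not tested.

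Whether the replicate numbers pair the libraries could not be checked: with the means over replicate numbers made equal before deposit, the deviations of same-numbered libraries must sum to about 0, which by itself makes their correlations negative (median -0.127). With the replicate number as a block, Foxo1 (adjusted p = 0.0616) and Foxo4 (adjusted p = 0.0686) in late against peak GC and Igf1r at 24 h against 12 h (adjusted p = 0.0649) passed no longer, with 14 in place of 16 residual degrees of freedom. Over all alternatives, targets called higher in late against peak GC ranged from 5 (2 groups alone) to 14 (without peak GC replicate 3) and those called lower from 0 to 2, and insulin and IGF signalling genes called lower against naive cells from 3 to 7 in peak GC, 2 to 6 in in vivo activated cells, 2 to 4 at 4 h and 5 to 11 at 24 h, lowest in each with the filter of 10 CPM, which tests fewer genes. FOXO targets called lower against naive cells ranged over all alternatives from 15 to 17 in peak GC, 22 to 25 in in vivo activated cells and 22 to 25 at 24 h. Depth is unknown, so no limit of detection can be given for Igf1r, which was near 1 CPM in several groups.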
